A study of Rattus norvegicus with 9 samples.

Results

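The 9 genes described here encode enzymes and regulators that build and break down glycogen in muscle, and they were chosen by gene symbol: Ppp1r3c, Ppp1r3a, Gys1, Pygm, Pygb, Gbe1, Gyg1, Ugp2 and Phka1. Each symbol matched 1 gene, so the members were 9 of the 19294 genes with values. All 9 passed the filter of a mean level of at least 1 FPKM over the 9 samples, which 12451 genes passed. FPKM is a count of sequenced fragments scaled to the length of the transcript and to the fragments mapped in the library.

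Glycogen is a branched store of glucose that heart muscle draws on for energy. Glycogen synthase adds glucose from UDP-glucose to a chain begun on glycogenin, and the branching enzyme makes the branch points. Glycogen phosphorylase releases glucose 1-phosphate from the chain ends. Phosphorylation switches phosphorylase on and synthase off, and protein phosphatase 1 (PP1), held on the particle by glycogen-targeting subunits, reverses both.

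RNA of the left ventricle of rats was sequenced in 3 groups of 3 samples. WKY are Wistar Kyoto rats, the normotensive strain commonly used as the control of SHR, the spontaneously hypertensive rat, and SHR_OMT are SHR given oxymatrine, an alkaloid from Sophora roots. SHR and SHR_OMT share the strain and differ by the treatment, whereas WKY differs from both in strain, and its genetic background cannot be told apart from blood pressure. No source used here gives age, sex, dose, route or duration of treatment.

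The labels do not say whether the 3 samples of a group were separate animals, and each p-value is set by the scatter among them alone, which may be technical. The table holds FPKM and no counts, so the depth is unknown, and the FPKM of a library summed to between 587526 and 606633. The ventricular markers Myh6, Tnnt2, Tnni3, Actc1, Myl2 and Myl3 together had 39750 to 40460 FPKM in WKY, 41870 to 44300 in SHR and 38070 to 42580 in SHR_OMT. Within that sum Myh6 and Actc1 were higher in SHR than in WKY, by 0.36 (adjusted p = 0.0140) and 0.47 (adjusted p = 0.0012) on the log2 scale. Tnnt2 gave −0.24 (adjusted p = 0.0605). Against WKY, treated SHR had Myh6 called higher at 0.40 (adjusted p = 0.0124 from limma) and Actc1 at 0.22 (adjusted p = 0.0439). Tnnt2 was called lower there, at −0.31. In that comparison the call of Tnnt2 was lost in 8 of 18 alternative fits and that of Actc1 in 10, whereas that of Myh6 held. The skeletal muscle myosins Myh1 and Myh4 averaged at most 0.03 FPKM over the 9 samples. Other genes listed as skeletal muscle markers were present. In WKY, SHR and treated SHR, Tnnt3 averaged 5.76, 5.20 and 4.34 FPKM and Mylpf 1.44, 1.14 and 1.58 FPKM. Ckm averaged 1650, 1626 and 1623 FPKM. In bulk tissue, fewer cells of a type and less RNA per cell cannot be told apart.

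Of the 9 genes, 6 were higher in SHR than in WKY and 0 lower at an adjusted p under 0.05, from limma on log2(FPKM + 1) with Benjamini-Hochberg adjustment over all genes tested. They were Ppp1r3c, Ppp1r3a, Gys1, Pygm, Gbe1 and Phka1, with levels 1.14- to 1.51-fold those of WKY. Over all genes tested, 10.8% were called higher and 23.1% lower at that adjusted threshold. At an unadjusted p under 0.05 the counts of the 9 genes were 8 higher and 0 lower. No share over all genes is given here for the unadjusted threshold, so those counts have no background beside them. The 3 SHR libraries lay wholly above the 3 WKY libraries for 7 of the 9 genes, and for 15.1% of all genes tested. The median difference of the 9 genes was 0.27 on the log2 scale, beside −0.08 over all genes tested. The 9 genes were chosen with earlier results of these data known. Their counts beside these shares, here and in the comparisons below, are a description and no test.

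Oxymatrine-treated SHR differed from SHR in 1 of the 9 genes: Ppp1r3c fell. None of the 9 was called higher by limma. Over all genes tested, 0.153% were called higher and 0.0883% lower at an adjusted p under 0.05. At an unadjusted p under 0.05, 1 of the 9 was higher and 2 were lower, with no share over all genes given for that threshold. Between these groups Ppp1r3c and Gyg1 lay wholly lower, as did 3.99% of all genes tested, and Pygb lay wholly higher, as did 13.2%.

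Treated SHR differed from WKY in 5 of the 9 genes, all of them higher: Ppp1r3a, Gys1, Pygb, Gbe1 and Phka1. None was called lower. Over all genes tested 10.2% were called higher and 14.6% lower at an adjusted p under 0.05. At an unadjusted p under 0.05, 6 of the 9 were higher and 1 was lower, with no share over all genes given for that threshold. Groups did not overlap, with treated SHR higher, in 6 of the 9 genes and in 17% of all genes tested. The comparison of SHR with WKY and that of treated SHR with SHR use the same SHR libraries, and both comparisons with WKY use the same WKY libraries, so their differences are given side by side only.

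The balance of higher and lower calls over all genes depended on how libraries were scaled. In SHR against WKY it was 1343 higher and 2872 lower on the deposited values, and 2033 higher and 1789 lower after median-of-ratios scaling. For treated SHR against WKY it was 1274 and 1821, and 1651 and 1377 after that scaling. For treated SHR against SHR it was 19 and 11, and 10 and 13 after it. Under that scaling 8 of the 9 genes passed as higher in SHR over WKY, 1 was called lower in treated SHR than in SHR, and 6 were called higher in treated SHR than in WKY.

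**Figure D1:**
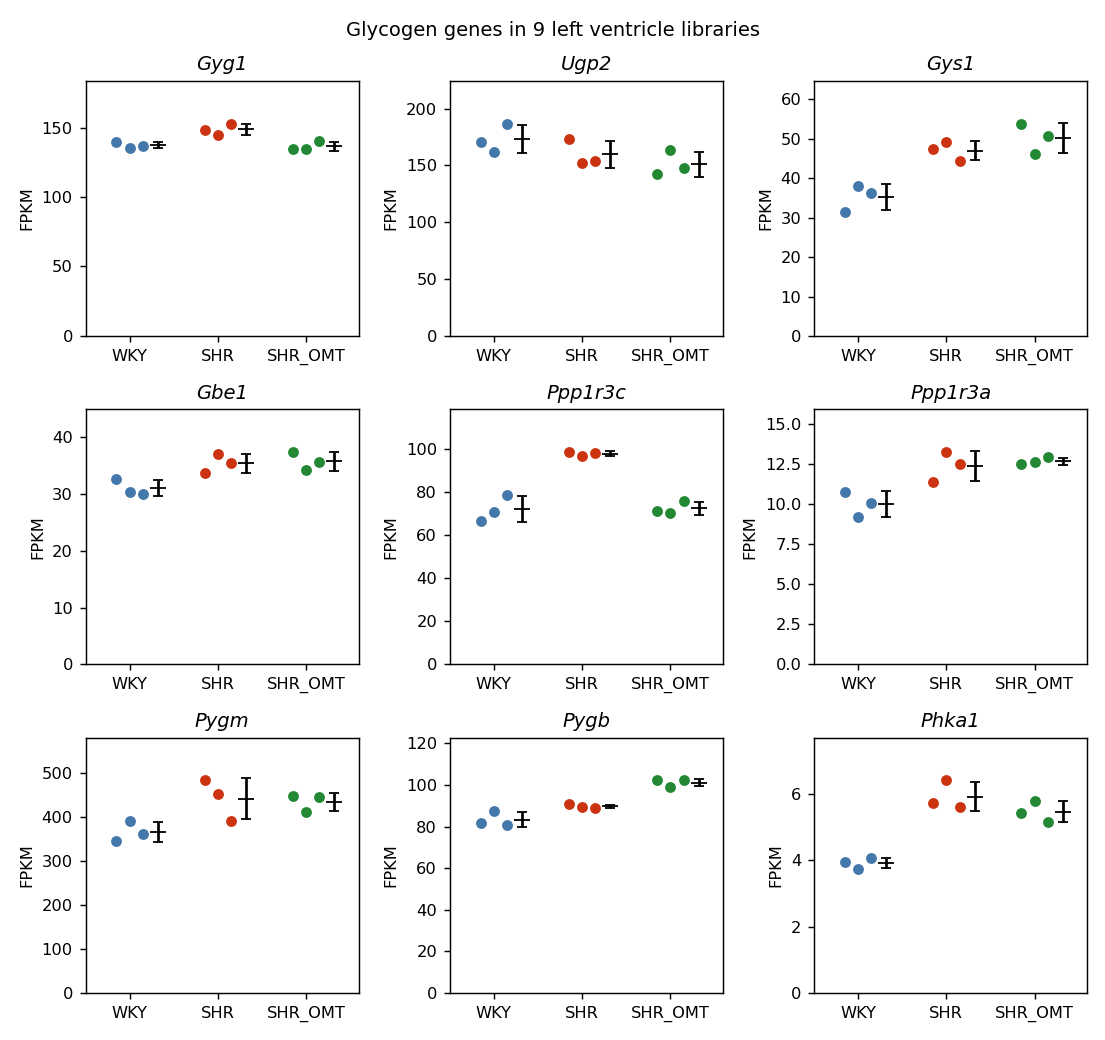
FPKM of the 9 glycogen genes in each sample, 1 panel per gene, with the 3 groups on the x axis, points for samples and bars for the mean ± SD. Ppp1r3c lies near 98 FPKM in the 3 SHR libraries and at or below 78.8 FPKM in the 6 others, whereas Phka1, Gys1 and Ppp1r3a are higher in both SHR groups than in WKY.

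Promoter windows of 3 members are shown, chosen by their values. Ppp1r3c and Gyg1 are the 2 genes whose treated libraries lay wholly below SHR, and of these Ppp1r3c alone was called. Ppp1r3a, the other PP1 targeting subunit among the 9, is 1 of the 6 members whose treated and untreated SHR libraries overlapped. Each window runs from 250 bases before to 50 bases after the annotated start, 5′ to 3′ on the gene's strand, from RefSeq on the GRCr8 build, which is not the Rnor_6.0 build named in the submitters' processing notes. The windows are chr1:243878478-243878777 for Ppp1r3c, chr4:43946187-43946486 for Ppp1r3a and chr2:104582728-104583027 for Gyg1, all on the minus strand. Capitals mark the letters CACGTG, a core of sites bound by basic helix-loop-helix factors, and ACGTG, the core of the hypoxia response element, found on either strand. Each CACGTG also holds ACGTG on both strands.
Ppp1r3c: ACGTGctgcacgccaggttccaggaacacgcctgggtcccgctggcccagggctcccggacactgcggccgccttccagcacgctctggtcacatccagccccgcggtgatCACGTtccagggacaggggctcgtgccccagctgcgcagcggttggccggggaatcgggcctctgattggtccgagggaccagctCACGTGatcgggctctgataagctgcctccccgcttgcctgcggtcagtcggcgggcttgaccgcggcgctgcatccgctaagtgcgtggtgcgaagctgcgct
Ppp1r3a: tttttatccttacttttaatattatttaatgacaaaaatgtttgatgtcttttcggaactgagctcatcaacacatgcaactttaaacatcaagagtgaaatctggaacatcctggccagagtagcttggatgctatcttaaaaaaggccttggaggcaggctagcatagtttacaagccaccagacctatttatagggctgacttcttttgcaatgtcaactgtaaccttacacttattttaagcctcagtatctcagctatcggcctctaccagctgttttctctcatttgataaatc
Gyg1: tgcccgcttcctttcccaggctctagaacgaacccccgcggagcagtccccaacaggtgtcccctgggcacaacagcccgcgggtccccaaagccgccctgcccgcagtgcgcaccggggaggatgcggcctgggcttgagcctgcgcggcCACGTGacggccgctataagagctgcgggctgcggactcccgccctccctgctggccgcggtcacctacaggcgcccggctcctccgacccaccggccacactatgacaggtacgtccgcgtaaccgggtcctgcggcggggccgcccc

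The window of Ppp1r3c had 69% G + C and 30 CpG, with a CACGTG starting 54 bases before the start of the gene. The Gyg1 window had 72.3% G + C and 32 CpG, with its CACGTG 99 bases before the start. The Ppp1r3a window had 37.7% G + C, 2 CpG and none of the motifs searched, against a median of 60.3% G + C over 11056 tested genes with a window. All 9 members matched a window. CACGTG was present in 2 of the 9, in 6.42% of the 33469 RefSeq promoter windows and in 9.21% of those of tested genes. ACGTG was present in 5 of the 9 (Gbe1, Gyg1, Ppp1r3c, Pygb and Pygm), in 19.3% of all windows and in 24.9% of those of tested genes. Of these, Pygb lay wholly higher in treated SHR than in SHR, and Gbe1 and Pygm overlapped. The cyclic AMP response element TGACGTCA was in 0 of the 9 and 1.83% of all windows, and TTATGNAA, a form of the C/EBP site, in 0 of the 9 and 3.66%. The full palindromic glucocorticoid response element was in 0 of the 9 and 0.0149% of all windows. A match to letters is a description of the window, and binding was not measured here.

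Ppp1r3c (NCBI gene 309513) encodes PTG, a subunit that brings PP1 to glycogen and promotes glycogen storage. Its levels were 66.8, 70.8 and 78.8 FPKM in the WKY libraries, 98.8, 96.8 and 98.4 FPKM in SHR and 71.3, 70.5 and 75.9 FPKM in treated SHR. All 3 SHR libraries were above every WKY and every treated library, and the WKY and treated ranges overlapped. The mean was 72.1 ± 6.08 FPKM (SD, n = 3) in WKY, 98.02 ± 1.03 in SHR and 72.5 ± 2.94 in treated SHR. Ppp1r3c rose by 0.44 on the log2 scale in SHR over WKY (SE 0.0614, adjusted p = 0.000809 from limma). It fell by 0.43 in treated SHR against SHR (95% interval −0.57 to −0.29, adjusted p = 0.0324). Treated SHR differed from WKY by 0.01 on the log2 scale (interval −0.13 to 0.15, adjusted p = 0.919).

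Of the 9 genes, Ppp1r3c had the smallest p of the F-test over the 3 groups (adjusted p = 0.00108). Its difference from WKY was called in all 18 alternative fits. The difference with treatment kept its sign in all 18, between −0.48 and −0.41 on the log2 scale, but its call was lost in 10 of them, with an adjusted p of up to 0.153. The lost calls came with no filter on low values, with no variance trend, with a replicate block and whenever WKY replicate 2, any SHR library or any treated library was left out.

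Ppp1r3a (NCBI gene 500036) encodes the muscle targeting subunit of PP1 that tethers it to glycogen and to the sarcoplasmic reticulum. It had 10.8, 9.20 and 10.1 FPKM in WKY, 11.4, 13.3 and 12.5 FPKM in SHR and 12.5, 12.6 and 12.9 FPKM in treated SHR. Every library of both SHR groups was above every WKY library, and the SHR groups overlapped. Ppp1r3a rose by 0.28 on the log2 scale in SHR over WKY (adjusted p = 0.0154) and by 0.32 in treated SHR over WKY (adjusted p = 0.0126). Treated SHR against SHR gave 0.03 (interval −0.13 to 0.20, adjusted p = 0.893). Without SHR replicate 2 the call against WKY was lost, at an adjusted p of 0.0546.

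The ratio of Ppp1r3c to Ppp1r3a within a library is free of that library's scaling. It was 6.21, 7.70 and 7.83 in WKY, 8.68, 7.31 and 7.87 in SHR and 5.71, 5.59 and 5.87 in treated SHR. All treated libraries were below every library of the other groups, and the WKY and SHR values overlapped. The difference of the mean log2 ratio was −0.47 for treated SHR against SHR and −0.33 against WKY. Each gave p = 0.1 in an exact two-sided permutation test, the smallest p that 3 against 3 allows. Adjusted over the 18 tests of 6 ratios this was 0.15, so the design could not reach the threshold.

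Gyg1 (NCBI gene 81675) encodes glycogenin, the self-glucosylating primer of the glycogen particle. Its levels were 139, 135 and 137 FPKM in WKY, 148, 145 and 153 FPKM in SHR and 135, 134 and 140 FPKM in treated SHR. The SHR libraries lay above all others, as they did for Ppp1r3c, but with a smaller distance. Gyg1 differed by 0.11 on the log2 scale between SHR and WKY (adjusted p = 0.0602) and by −0.12 between treated SHR and SHR (interval −0.22 to −0.03, adjusted p = 0.306), and neither passed the threshold. The first was called after median-of-ratios scaling, after quantile normalization and with no filter on low values.

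Ugp2 (NCBI gene 289827) encodes UDP-glucose pyrophosphorylase, which makes the glucose donor. Its levels were 171, 162 and 187 FPKM in WKY, 174, 152 and 154 FPKM in SHR and 142, 164 and 148 FPKM in treated SHR, and all 3 groups overlapped. It was the only member with a mean below WKY in SHR, at −0.12 on the log2 scale (interval −0.29 to 0.05, adjusted p = 0.265). Treated SHR against WKY gave −0.20 (interval −0.37 to −0.02, adjusted p = 0.0888). Ugp2 was called in none of the comparisons.

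Gys1 (NCBI gene 690987) encodes muscle glycogen synthase, which lengthens the chains. Its levels were 31.5, 38.0 and 36.2 FPKM in WKY, 47.4, 49.2 and 44.4 FPKM in SHR and 53.9, 46.3 and 50.7 FPKM in treated SHR. Every SHR and every treated library was above every WKY library. The mean of 35.2 ± 3.36 FPKM (SD, n = 3) in WKY compared with 47.0 ± 2.41 in SHR, 33.6% higher, and 50.3 ± 3.82 in treated SHR, 42.8% higher. Gys1 rose by 0.41 on the log2 scale in SHR (adjusted p = 0.00439) and by 0.50 in treated SHR (adjusted p = 0.00229) over WKY. Treated SHR against SHR gave 0.09 (interval −0.09 to 0.27, adjusted p = 0.703).

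Gbe1 (NCBI gene 288333) encodes the branching enzyme. It had 32.5, 30.4 and 30.01 FPKM in WKY, 33.7, 37.0 and 35.5 FPKM in SHR and 37.3, 34.1 and 35.6 FPKM in treated SHR. Both SHR groups lay above WKY and overlapped with each other. Gbe1 rose by 0.19 on the log2 scale in SHR (adjusted p = 0.0313) and by 0.20 in treated SHR (adjusted p = 0.0312) over WKY. Each call was lost in 5 of the 18 alternative fits, with an adjusted p of up to 0.101 in SHR and 0.107 in treated SHR. Treated SHR against SHR gave 0.01 (interval −0.11 to 0.14, adjusted p = 0.956).

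Among the genes of synthesis, the ratio of Gyg1 to Gys1 stepped down across the 3 groups without overlap. It was 4.43, 3.56 and 3.78 in WKY, 3.13, 2.94 and 3.44 in SHR and 2.50, 2.90 and 2.77 in treated SHR. The mean log2 ratio differed by −0.31 between SHR and WKY, by −0.22 between treated SHR and SHR and by −0.52 between treated SHR and WKY, each with p = 0.1 in the exact permutation test and 0.15 after adjustment. The ratio of Gys1 to Gbe1 was 1.14 ± 0.152 in WKY, 1.33 ± 0.0777 in SHR and 1.41 ± 0.0460 in treated SHR, and both SHR groups lay above WKY without overlap (exact permutation p = 0.1 for each).

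Pygm (NCBI gene 24701) encodes the muscle isoform of glycogen phosphorylase and was the most abundant of the 9 genes, with a mean of 414 FPKM that ranked 242 among the 12451 genes tested. Its levels were 346, 391 and 361 FPKM in WKY, 482, 451 and 390 FPKM in SHR and 446, 410 and 445 FPKM in treated SHR. SHR replicate 3 lay just below WKY replicate 2, so SHR and WKY overlapped, whereas treated SHR lay wholly above WKY. Pygm rose by 0.27 on the log2 scale in SHR over WKY (adjusted p = 0.0314), and this call was lost in 7 of the 18 alternative fits, with an adjusted p of up to 0.107. Treated SHR against WKY gave 0.24 (interval 0.06 to 0.43, adjusted p = 0.0528) and was called in 8 of the 18 alternative fits, both other scalings included. Treated SHR against SHR gave −0.02 (interval −0.20 to 0.16, adjusted p = 0.949).

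Pygb (NCBI gene 25739) encodes the brain isoform of the enzyme, which heart muscle also expresses. It had 81.6, 87.6 and 80.8 FPKM in WKY, 90.7, 89.4 and 89.1 FPKM in SHR and 102, 99.1 and 102 FPKM in treated SHR. The 3 groups followed each other without overlap, treated SHR being the highest. Pygb rose by 0.28 on the log2 scale in treated SHR over WKY (adjusted p = 0.00229). The step between SHR and WKY was 0.11 (adjusted p = 0.0912), and that between treated SHR and SHR was 0.17 (interval 0.07 to 0.27, adjusted p = 0.188), and neither passed the threshold. The first was called after median-of-ratios scaling and without WKY replicate 2.

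Within libraries, the ratio of Pygb to Pygm was 0.228 ± 0.00695 in WKY, 0.205 ± 0.0209 in SHR and 0.234 ± 0.00726 in treated SHR, and treated SHR lay wholly above SHR (exact permutation p = 0.1, adjusted 0.15). The ratio of Gys1 to the sum of the phosphorylases Pygm, Pygb and Pygl was 0.0777 ± 0.00430 in WKY, 0.0885 ± 0.00523 in SHR and 0.0935 ± 0.00384 in treated SHR. Both SHR groups lay above WKY without overlap (exact permutation p = 0.1 for each), and they overlapped with each other (exact permutation p = 0.4).

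**Figure D2:**
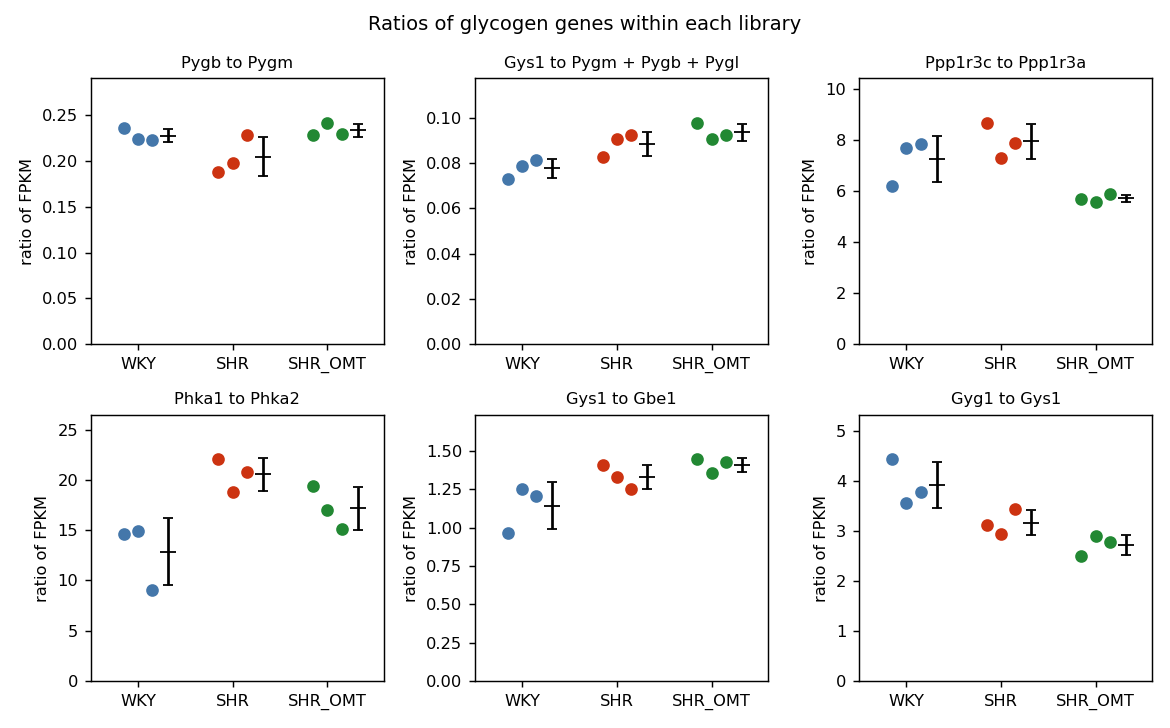
The 6 within-library ratios of glycogen genes, 1 panel per ratio, with the groups on the x axis, points for libraries and bars for the mean ± SD. Gyg1 to Gys1 descends from WKY to treated SHR without overlap, and Ppp1r3c to Ppp1r3a is lowest in the 3 treated libraries, between 5.59 and 5.87.

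Phka1 (NCBI gene 64561, on chromosome X) encodes the muscle alpha subunit of phosphorylase kinase, the enzyme that switches phosphorylase on. Its levels were 3.94, 3.74 and 4.06 FPKM in WKY, 5.73, 6.40 and 5.61 FPKM in SHR and 5.43, 5.78 and 5.15 FPKM in treated SHR. Both SHR groups lay above WKY and overlapped with each other. Phka1 was the lowest of the 9 genes in level and had the greatest difference between SHR and WKY among them, with a mean 51.1% higher. It rose by 0.49 on the log2 scale in SHR (adjusted p = 0.00113) and by 0.39 in treated SHR (adjusted p = 0.0049) over WKY, and the SHR call held in all 18 alternative fits. Treated SHR against SHR gave −0.10 (interval −0.26 to 0.07, adjusted p = 0.647). The liver alpha subunit Phka2 averaged only 0.29 to 0.32 FPKM by group, and the ratio of Phka1 to Phka2 rests on those low values.

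**Figure D3:**
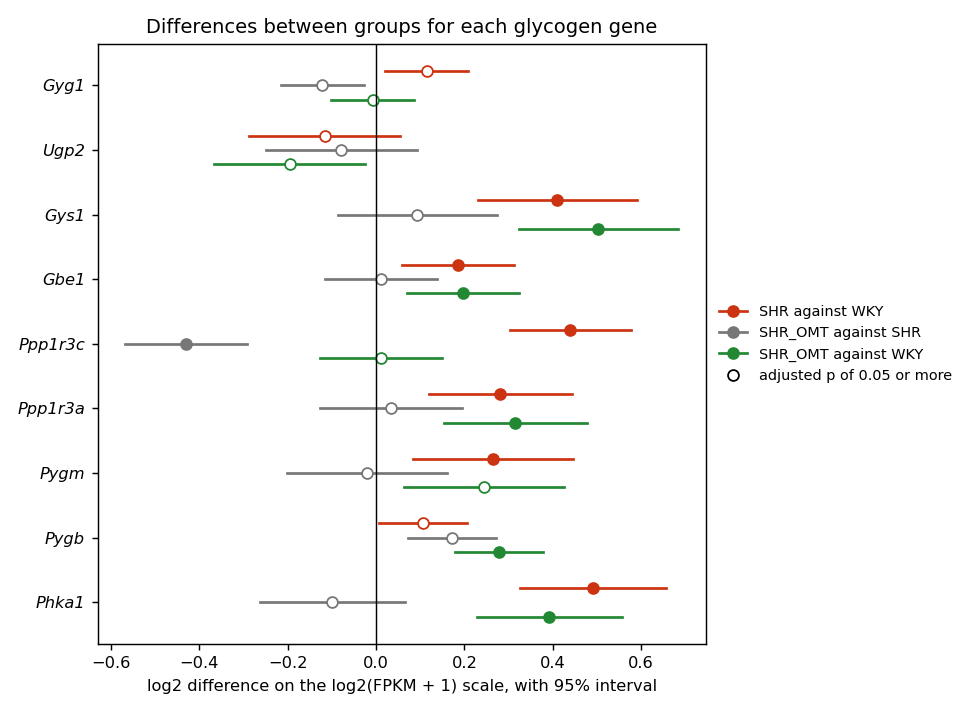
Difference in log2(FPKM + 1) of each of the 9 genes for SHR against WKY, treated SHR against SHR and treated SHR against WKY, with 95% intervals from limma. Ppp1r3c stands at 0.44 and −0.43 in the first 2 comparisons and at 0.01 in the last, and the intervals of Ppp1r3a, Gys1, Pygm, Gbe1 and Phka1 include 0 for treated SHR against SHR.

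By level over the 9 samples the genes followed the order Pygm, Ugp2, Gyg1, Pygb, Ppp1r3c, Gys1, Gbe1, Ppp1r3a and Phka1, from 414 to 5.09 FPKM. Some neighbours changed places between groups. Ppp1r3c was above Pygb in the 3 SHR libraries and below it in the 6 others. Ugp2 and Gyg1 overlapped in SHR but not in WKY or treated SHR, and Gys1 and Gbe1 overlapped in WKY alone. The 9 genes together had 883 to 928 FPKM in WKY, 983 to 1092 FPKM in SHR and 976 to 1015 FPKM in treated SHR, so the summed level of both SHR groups lay above WKY.

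In the authors' deposited table, 8 of the 9 genes had a q-value under 0.05 for SHR against WKY, all of them higher. The exception was Ugp2 with q = 0.958. No share over all genes is given here for the authors' q-values, so counts by them have no background beside them. For treated SHR against SHR, Ppp1r3c was the only member under 0.05 in the authors' deposited table, with a log2 ratio of −0.485 and q = 1.52e-09. The log2 ratios of the authors' deposited table were 0.104 to 0.144 above the limma differences for SHR against WKY, and differed from them by −0.0633 to −0.0468 for treated SHR against SHR.

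Other genes of glycogen metabolism were read from 5 lists of 53 genes, of which 47 were tested. In SHR against WKY, 13 of the 47 rose and 7 fell, with a median difference of 0.03 on the log2 scale, beside the 10.8% called higher and 23.1% called lower of all genes tested. After median-of-ratios scaling 20 rose and 4 fell, beside 16.3% and 14.4% of all genes, and after quantile normalization 15 and 3, beside 15.1% and 14.6%. Counts for single lists in SHR against WKY stand against the same shares. In treated SHR against SHR limma called none of the 47, beside 0.153% called higher and 0.0883% called lower of all genes tested. At an unadjusted p under 0.05, 3 were higher and 2 lower, with no share over all genes given for that threshold. None of the 47 had a q-value under 0.05 for treated SHR against SHR in the authors' deposited table, with no share over all genes given. Treated SHR against WKY gave 12 higher and 3 lower, the latter being Phkg1, Pgm2 and Calm3. Over all genes tested, 10.2% were called higher and 14.6% lower in that comparison.

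Among the 10 tested enzymes and kinase subunits outside the 9 genes, 3 rose and 4 fell in SHR against WKY, and the count that fell was 2 after median-of-ratios scaling and 1 after quantile normalization. Pgm1 and Phkb were among those that rose. Pgm1, the phosphoglucomutase that links glucose 1-phosphate with glucose 6-phosphate, had 83.2 ± 1.57 FPKM in WKY, 108 ± 0.867 in SHR and 96.9 ± 1.34 in treated SHR. It rose by 0.37 on the log2 scale in SHR over WKY (adjusted p = 0.000176), and treated SHR against SHR gave −0.16 (adjusted p = 0.173). Phkb, the beta subunit of phosphorylase kinase, rose by 0.20 in SHR (adjusted p = 0.027) and by 0.20 in treated SHR (adjusted p = 0.0397) over WKY. These calls were lost in 4 and in 8 of 18 alternative fits, the replicate block among both, with an adjusted p of up to 0.0891 and 0.121. The call of Pgm1 in SHR held in all 18.

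The 4 that fell in SHR were Phkg1, Pygl, Pgm2 and Pgm2l1. Phkg1, the muscle catalytic subunit of phosphorylase kinase, had 9.08, 8.38 and 8.49 FPKM in WKY and 4.91, 6.49 and 5.12 FPKM in SHR. It fell by 0.58 on the log2 scale in SHR against WKY (adjusted p = 0.00659), the opposite direction to Phka1 and Phkb, while Phkg2, the other catalytic subunit, gave 0.03 (adjusted p = 0.735). Its lower value in treated SHR against WKY, −0.40 (adjusted p = 0.0389), was not called under either other scaling and was lost in 10 of 18 alternative fits. Pygl, the liver phosphorylase, fell by 0.43 (adjusted p = 0.0235), Pgm2 by 0.36 and Pgm2l1 by 0.37. The calls of Pgm2 and Pgm2l1 were lost under both other scalings and that of Pygl after quantile normalization. Over all alternative fits, that of Pgm2 was lost in 7 of 18, that of Pgm2l1 in 14 of 17 and that of Pygl in 5 of 17, whereas that of Phkg1 held in all 18.

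Of 7 tested PP1 subunits and partners, Ppp1r2, an inhibitor of PP1, rose by 0.20 on the log2 scale in SHR (adjusted p = 0.0177). Ppp1r3b, a targeting subunit best known from liver, fell by 0.46 (adjusted p = 0.0176), from 4.70 to 3.16 FPKM, opposite in direction to Ppp1r3c and Ppp1r3a, and its call was lost after quantile normalization. Ppp1r3d, a further targeting subunit, averaged 19.9 FPKM in WKY and 18.7 FPKM in SHR (adjusted p = 0.508). Ppp1cb, a catalytic subunit of PP1, gave 0.10 on the log2 scale for SHR against WKY (adjusted p = 0.133) and was called higher after median-of-ratios scaling, and Ppp1r1a, a PP1 inhibitor, gave −0.24 (adjusted p = 0.11).

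Of 5 tested genes of laforin, malin and glycogen autophagy, Gabarapl1, which takes part in autophagosome formation, rose by 0.17 on the log2 scale in SHR over WKY (adjusted p = 0.0454, lost in 10 of 18 alternative fits). Nhlrc1, the ubiquitin ligase malin, averaged 7.497 FPKM in WKY, 8.58 FPKM in SHR and 11.2 FPKM in treated SHR, and rose by 0.52 in treated SHR over WKY (adjusted p = 0.0019). Epm2a, the glycogen phosphatase laforin, averaged 1.06, 1.19 and 2.08 FPKM and rose by 0.57 in the same comparison (adjusted p = 0.0165). The differences from SHR were 0.35 for Nhlrc1 (adjusted p = 0.147) and 0.48 for Epm2a (adjusted p = 0.231), and neither passed the threshold. Both genes lay wholly higher in treated SHR than in SHR, as did 13.2% of all genes tested. For SHR against WKY, Nhlrc1 gave 0.17 (adjusted p = 0.13 from limma) and was called higher under both other scalings. Stbd1, which anchors glycogen to membranes, averaged 12.1, 13.4 and 12.4 FPKM in the 3 groups and was called in none of the comparisons.

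Of 19 upstream kinases, their subunits and calmodulins, 6 rose and 2 fell in SHR against WKY, and 8 and 1 after median-of-ratios scaling. Prkaa2, the catalytic alpha subunit of AMP-activated protein kinase that prevails in muscle, rose by 0.44 on the log2 scale (adjusted p = 0.000267), and Akt2, an insulin-signalling kinase, by 0.40 (adjusted p = 0.00117). Irs2, an insulin receptor substrate, rose by 0.57 (adjusted p = 0.0175), lost in 3 of 17 alternative fits. The other 3 that rose were Prkab2, Prkaca and Akt1, by 0.27, 0.26 and 0.22. The call of Akt1 was lost in 10 of 18 alternative fits, with an adjusted p of up to 0.15, and that of Prkab2 in 3, whereas those of Prkaca, Prkaa2 and Akt2 held in all 18. Prkaa2, Akt2 and Irs2 also rose in treated SHR over WKY, by 0.39, 0.36 and 0.64. Calm3 and Calm2, calmodulin genes, fell by 0.28 and 0.24 in SHR, and the call of Calm2 was lost in 9 of 18 alternative fits. Among 6 genes of glucose supply, the glucose transporter Slc2a1 rose by 0.47 (adjusted p = 0.00302) and hexokinase 2, Hk2, by 0.26 (adjusted p = 0.0448) in SHR over WKY. The call of Slc2a1 held in all 18 alternative fits, and that of Hk2 was lost in 9, with an adjusted p of up to 0.123. Hexokinase 1, Hk1, gave 0.19 (adjusted p = 0.0516) and was called higher under both other scalings. Slc2a4, the insulin-regulated glucose transporter, averaged 150 FPKM in WKY, 153 FPKM in SHR and 174 FPKM in treated SHR and was called in none of the comparisons.

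**Figure D4:**
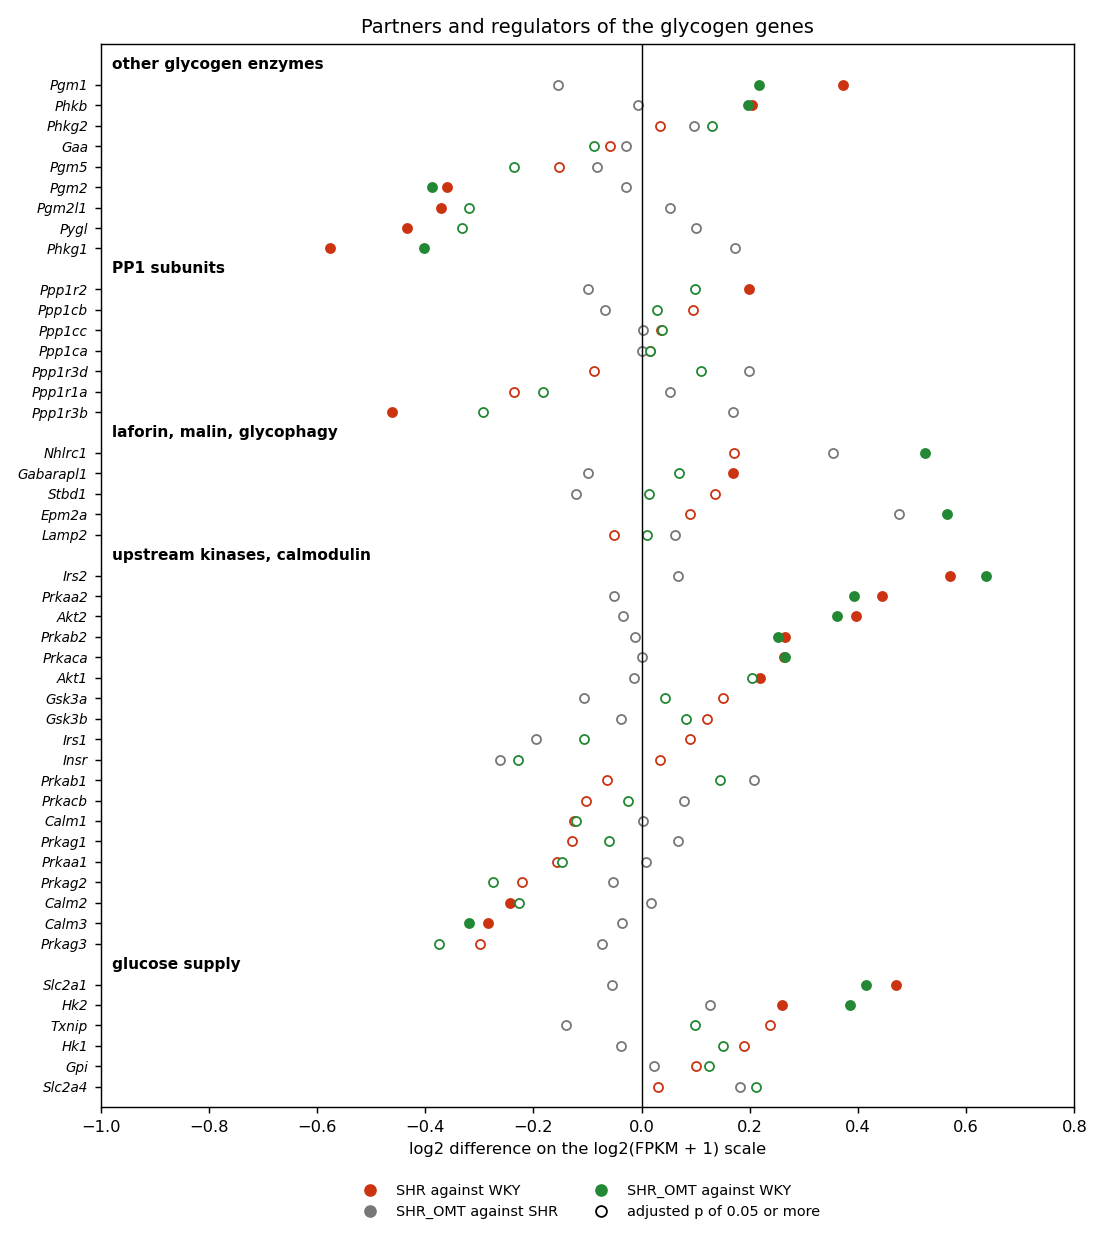
Differences in log2(FPKM + 1) of 46 of the 47 tested genes of the 5 lists in the 3 comparisons, with filled symbols for an adjusted p under 0.05. Phkg1 lies lowest for SHR against WKY at −0.58, and no symbol is filled for treated SHR against SHR.

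The 5 tested genes with a pattern over the 9 samples most like that of Ppp1r3c were Gabre, Cpa6, Asb2, Rcan1 and Ldha, with Pearson correlations of 0.929, 0.922, 0.917, 0.916 and 0.915 of log2(FPKM + 1). The correlations describe 9 samples in 3 groups and carry no test. Rcan1, a regulator of calcineurin, averaged 261 FPKM in WKY, 493 FPKM in SHR and 300 FPKM in treated SHR. It also passed the threshold in treated SHR against SHR, at −0.72 on the log2 scale (adjusted p = 0.0324), a call that was lost in 10 of 18 alternative fits, with an adjusted p of up to 0.14. Ldha, the muscle form of lactate dehydrogenase, averaged 613, 710 and 642 FPKM, and its difference with treatment did not pass (adjusted p = 0.286).

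Some markers of other cells also differed between groups. The endothelial genes Pecam1, Cdh5 and Emcn together had 376 to 447 FPKM in WKY, 265 to 297 FPKM in SHR and 303 to 307 FPKM in treated SHR, and all 3 were called lower in both comparisons with WKY. The neutrophil genes S100a8 and S100a9 together had 6.66 to 10.3 FPKM in WKY, 10.98 to 38.71 FPKM in SHR and 7.02 to 13.1 FPKM in treated SHR, and SHR exceeded WKY for both at the threshold. The fibroblast gene Lum was called lower in SHR and in treated SHR than in WKY, at −0.48 and −0.47 on the log2 scale. Pdgfra was called lower in treated SHR, at −0.41. The Lum calls were lost in 4 and in 7 of 18 alternative fits, and that of Pdgfra in 2. The fibroblast genes Col1a1 (−0.10 in SHR and 0.06 in treated SHR) and Dcn (−0.10 and −0.29) were not called against WKY. The atrial gene Myl7 was called lower in SHR than in WKY, at −1.52, a call lost in 9 of 17 alternative fits. Its levels were low, with 9.33, 8.06 and 1.49 FPKM in WKY. The atrial genes Sln (−1.10, adjusted p = 0.4145) and Myl4 (0.33, adjusted p = 0.284) were not called in SHR against WKY. The neuronal gene Tubb3 was called higher there, at 0.70 and at low levels, and the neuronal gene Snap25 was below the filter. In treated SHR against SHR limma called none of 33 tested marker genes. At an unadjusted p under 0.05, 4 were higher and 3 lower, and 3 had a q-value under 0.05 in the authors' deposited table. No share over all genes is given here for the unadjusted threshold or for the authors' q-values. Of the adipocyte markers, Ucp1 was listed at 0 in all 9 libraries and Adipoq was below the filter. The part of these cells in the differences of the glycogen genes was not tested. Pygm, Gbe1 and Phka1 overlap other annotated genes in the RefSeq GRCr8 annotation, and no source used here says whether reads were counted by strand.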

How the data were processed

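Per the labels' protocols, Trizol was used to isolate left ventricle RNA of the 9 rat samples, and sequencing on the BGISEQ-500 followed a KAPA RNA HyperPrep library preparation. The genome build Rnor_6.0 and the tools DESeq2 1.4.5, Bowtie2 and RSEM 1.3.1 are named, without roles, in the submitters' processing notes. The authors deposited FPKM per gene, a normalized value without counts, so depth is unknown. The same deposited table holds the authors' log2 ratios and q-values, per the file headers. How replicates entered those is not given in the sources used here.

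Of 22864 table entries, 3570 had no values and 19294 were used. The 27 symbols that a spreadsheet had turned into dates were restored by gene ID from RefSeq (GRCr8).

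Genes with a mean of at least 1 FPKM were tested with limma 3.58.1 in R 4.3.3 on log2(FPKM + 1), in 1 fit over 3 groups (6 residual degrees of freedom, mean-variance trend), with Benjamini-Hochberg adjustment over all 12451 genes and a threshold of 0.05. Fold changes on this scale understate those of low genes. Group means that gave fold values were taken on FPKM. Ratios within libraries were compared by exact two-sided permutation tests (scipy 1.17.1). The procedure was tested on simulated data.

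The members and gene lists were chosen with earlier results of these data known. From each list the text names up to 4 genes with the smallest p in any comparison and those that account for small counts. Phkg2, Ppp1r3d and the gene counts of each list serve as context, and Phkg2 and Ppp1r3d were chosen after their values were seen. One gene of these lists enters the counts and is not reported here by name or drawn. For Ppp1r3c the 5 most correlated genes are named. Shared replicate numbers were not treated as pairs in the main fit. The 18 alternatives varied the pseudocount, filter, scaling, model and replicate block, and left out each library.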

Additional observations from a re-analysis of the deposited data

How the results depend on the processing

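In SHR against WKY, 144 of 162 recomputed values of the 9 genes kept their direction and their side of the threshold, 13 lost the call and 5 gained it. The figures for treated SHR against SHR were 143, 10 and 0, with 9 changes of sign, and for treated SHR against WKY 141, 5 and 8, with 8 changes of sign. The 126 recomputed ratio differences kept their direction, and their exact tests could not pass the threshold under any setting. Of 1086 recomputed values of 61 called or named results of other genes, 172 lost the call and none changed sign. The members called ranged from 3 (without SHR replicate 2) to 6 when single libraries were left out of SHR against WKY.

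The call of Ppp1r3c in treated SHR against SHR decides whether 1 or 0 members pass. The count was 0 with no filter on low values, with no variance trend and with the replicate block, and 0 to 1 when single libraries were left out. Over all genes, that comparison gave 30 calls, against 12 with no filter, 19 with only the groups compared, 17 with no variance trend and 14 with the replicate block, and 6 (without SHR_OMT replicate 1) to 33 when single libraries were left out. The treated SHR against WKY count of 3095 ranged from 1893 (without WKY replicate 1) to 3043 when single libraries were left out, and was 3604 with sample weights.

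Values near 0 changed sign. On the log2 scale, Gbe1 in treated SHR against SHR was −0.0324 after median-of-ratios scaling, −0.0021 after quantile normalization and −0.0215 to 0.0439 with single libraries left out. Ppp1r3a in that comparison was −0.0086, −0.0138 and −0.0207 to 0.0808, and Pygm −0.106 to 0.0462 with single libraries left out. Gyg1 in treated SHR against WKY was 0.0378, 0.0231 and −0.0279 to 0.0046, and Ppp1r3c there −0.0423 to 0.0748 with single libraries left out.

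No source used here says that replicate numbers pair samples. Deviations from the group mean of each tested gene were correlated between same-numbered samples of different groups, and ran from −0.109 to 0.028. With 3 samples per group these values cannot show whether samples were paired. With the replicate block 4, 0 and 4 members were called in the 3 comparisons. The cause of these changes was not tested. Depth is unknown, so no counting error can be given.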
